A study of Rattus norvegicus with 15 samples.

Results

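The hepatic expression of 7 genes around the control of fat synthesis was followed in rats fed either of 2 soy isoflavones. The genes were the transcription factor genes Srebf1 and Mlxipl, and Pklr, Thrsp, Mid1ip1, Pnpla3 and Aacs, which are known to respond to lipogenic or nutritional signals. They were chosen by name, with earlier results of these data known. Every probe set whose array annotation named only 1 of them was taken, which gave 13 of the 31042 probe sets that were not controls. All 13 passed the filter on low values and were among the 18625 probe sets tested. The rats were male Sprague-Dawley animals that arrived at 4 weeks of age and had 5 days to adapt. For 14 days their food then held genistein at 2 g/kg, daidzein at 2 g/kg, or, in the control group, no isoflavone. Per the labels, all 3 diets shared a base of casein, palm oil and corn starch made up to weight with sucrose. Each diet group held 5 arrays, which the titles call biological replicates, and arrays are named here by diet and title number. Genistein carries a hydroxyl group that daidzein lacks, and the study asked how the pair compare in their action on lipid metabolism in the liver.

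SREBP-1, the product of Srebf1, is made as a precursor in the membrane of the endoplasmic reticulum and is cut to release a transcription factor that switches on genes of fatty acid synthesis. Insulin and the oxysterol receptor LXR are known to raise its 1c form in liver. ChREBP, the product of Mlxipl, pairs with Mlx and switches on glycolytic and lipogenic genes when carbohydrate is plentiful. In rodent liver both factors are known to act together on several of the genes described here, and sucrose-rich diets are a classic way to engage them.

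Levels are given in log2 units that were rebuilt from the deposited scores. Their zero is arbitrary, so a level can be compared between arrays for 1 probe set but not between probe sets. Across the 18625 probe sets, arrays correlated with each other at 0.931 to 0.969. All 6 hepatocyte markers measured passed the filter. Their mean level ran from 7.29 to 7.52 in genistein arrays and from 7.35 to 7.61 in daidzein arrays. It ran from 7.47 to 7.71 in control arrays. Of the 6, Tat differed most from control, by -1.02 beside genistein (limma adjusted p = 0.222) and -0.52 beside daidzein. In the same order, Hnf4a differed by -0.23 and -0.11 and Serpina1 by -0.09 and -0.02. Ttr differed by 0.05 and 0.01 and Apoa1 by 0.04 and -0.01. Alb read 9.29 in every array, so it cannot show a difference. The adipocyte genes Adipoq, Lep and Plin1 lay below the filter, and 2 of 5 markers of that cell type, Cidea and Cfd, passed it. Against control, Cidea differed by 0.46 beside daidzein (limma adjusted p = 0.481) and -0.08 beside genistein, and Cfd by -0.26 and -0.10. The mean of the 5 adipocyte markers was highest in daidzein 5, at 0.41, followed by control 4 at 0.19. Whether RNA of fat tissue has a part in that was not tested. Daidzein 5 stood apart in 4 of 4 markers of exocrine pancreas, whose mean was 6.63 there, against -0.07 to 0.33 in the other daidzein arrays, -0.15 to 0.23 in genistein arrays and -0.04 to 0.64 in control arrays. The description of genistein 3 ends in "-re", which the labels do not explain. Genistein 3 and daidzein 5 were also the arrays with the lowest Srebf1 and Pnpla3 levels. Values without 1 or the other are therefore given beside many of the results, though not beside all. In liver tissue, fewer cells of a type and less RNA per cell cannot be told apart.

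Promoter sequence just before the annotated start is shown for 3 of the genes, taken from RefSeq on the rat build GRCr8. Pklr is shown because its proximal promoter holds the element through which carbohydrate response is classically described. Srebf1 and Pnpla3 are shown because their levels had the highest Pearson r among the 7 genes, over the probe sets of the highest mean. Srebf1 has 2 listed starts, and the more downstream one is shown because its window holds the run TCACNCGAG, described below. The window of the other Srebf1 start does not hold that run, and has a CCAAT box at -169. A run shared by the 2 windows shown is therefore in part a result of that choice. Each line gives the 250 bases before the start, read 5′ to 3′ along the gene.
Pklr, chr2:176841014-176841263, plus strand: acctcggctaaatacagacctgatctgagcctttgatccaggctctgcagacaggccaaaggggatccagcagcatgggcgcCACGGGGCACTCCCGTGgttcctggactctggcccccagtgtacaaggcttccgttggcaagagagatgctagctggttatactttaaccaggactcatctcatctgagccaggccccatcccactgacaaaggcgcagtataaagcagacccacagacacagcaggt
Srebf1, chr10:45519011-45519260, minus strand: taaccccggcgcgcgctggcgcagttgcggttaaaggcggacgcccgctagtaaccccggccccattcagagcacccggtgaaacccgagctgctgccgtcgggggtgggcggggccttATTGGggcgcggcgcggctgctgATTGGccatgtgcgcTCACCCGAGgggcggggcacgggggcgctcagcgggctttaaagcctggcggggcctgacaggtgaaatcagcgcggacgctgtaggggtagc
Pnpla3, chr7:117173278-117173527, plus strand: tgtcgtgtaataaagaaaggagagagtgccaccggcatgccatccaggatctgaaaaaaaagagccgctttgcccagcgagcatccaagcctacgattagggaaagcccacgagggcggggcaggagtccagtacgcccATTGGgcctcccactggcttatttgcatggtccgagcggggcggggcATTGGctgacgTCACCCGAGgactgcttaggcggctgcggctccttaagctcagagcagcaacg
In Pklr the capitals mark the carbohydrate response element, a pair of E-box-like arms in opposite orientation, which begins at position -168 from the start. The same outer arms with any 5 letters between them were found in 1 of 33469 promoter windows of 300 bases, or 0.00299%, which is the Pklr window itself. The arms were copied from Pklr, so this share does not tell how common carbohydrate response elements are. That pattern is a palindrome, so a match counts on both strands. In Srebf1 and Pnpla3 the capitals mark the CCAAT box, which occurs at 2 places in each as its reverse complement ATTGG, and the run TCACCCGAG. That run begins at -93 in Srebf1 and at -53 in Pnpla3, and TCACNCGAG was found on either strand in 139 windows, or 0.415%, while CCAAT was found in 37.5%. The run was picked out after the sequences had been read, and both genes have CCAAT boxes shortly before it. Of the 6 motifs searched over the 9 windows of the 7 genes, the E box CACGTG (6.42% of all windows) and the sterol element TCACNCCAC (1.12%) were in none of the 9, and the GC box GGGCGG was in 33.1% of all windows. A match describes the letters and not a bound site.

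Beside genistein, the means of all 13 probe sets were below control, with differences that reached -1.47 in Pnpla3 (1380013_at) and -0.97 in Mid1ip1, but none passed the test. Without genistein 3 that Pnpla3 difference was -0.81. By limma, with p adjusted over all probe sets and a threshold of 0.05, 0.322% of all probe sets were called between genistein and control, and 0 of the 13 were. At an unadjusted p under 0.05, 4 of the 13 were lower, 1 each of Mid1ip1, Srebf1, Pnpla3 and Pklr, and 0 were higher, against 5.5% lower and 5.45% higher over all probe sets. The median difference of the 13 was -0.54, while that of all probe sets was -1.54e-05. Probe sets of 1 gene share their RNA, so the 13 are not independent.

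Beside daidzein, the means of all 13 probe sets were again below control, and again 0 of 13 were called, where 0.0161% of all probe sets were. Only Mlxipl had an unadjusted p under 0.05, and it was lower, against 4.14% of all probe sets lower and 4.1% higher. The median difference was -0.27 over the 13 and 3.48e-04 over all probe sets. Both isoflavone groups share the same control arrays, so the 2 sets of differences are not independent of each other.

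Between genistein and daidzein, 11 of the 13 differences were below 0, and 0 of 13 were called, where 0.113% of all probe sets were. Mid1ip1 was lower and Mlxipl higher beside genistein at an unadjusted p under 0.05, that is 1 of 13 in each direction, against 4.73% lower and 4.64% higher over all probe sets. The median difference was -0.12 for the 13 and 7.79e-04 for all probe sets. The 5 arrays of 1 diet were separated from those of another in 0 of the 13 probe sets in each comparison, where this held for 2.57% of all probe sets between genistein and control, 1.88% between daidzein and control and 2.03% between genistein and daidzein.

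**Figure D1:**
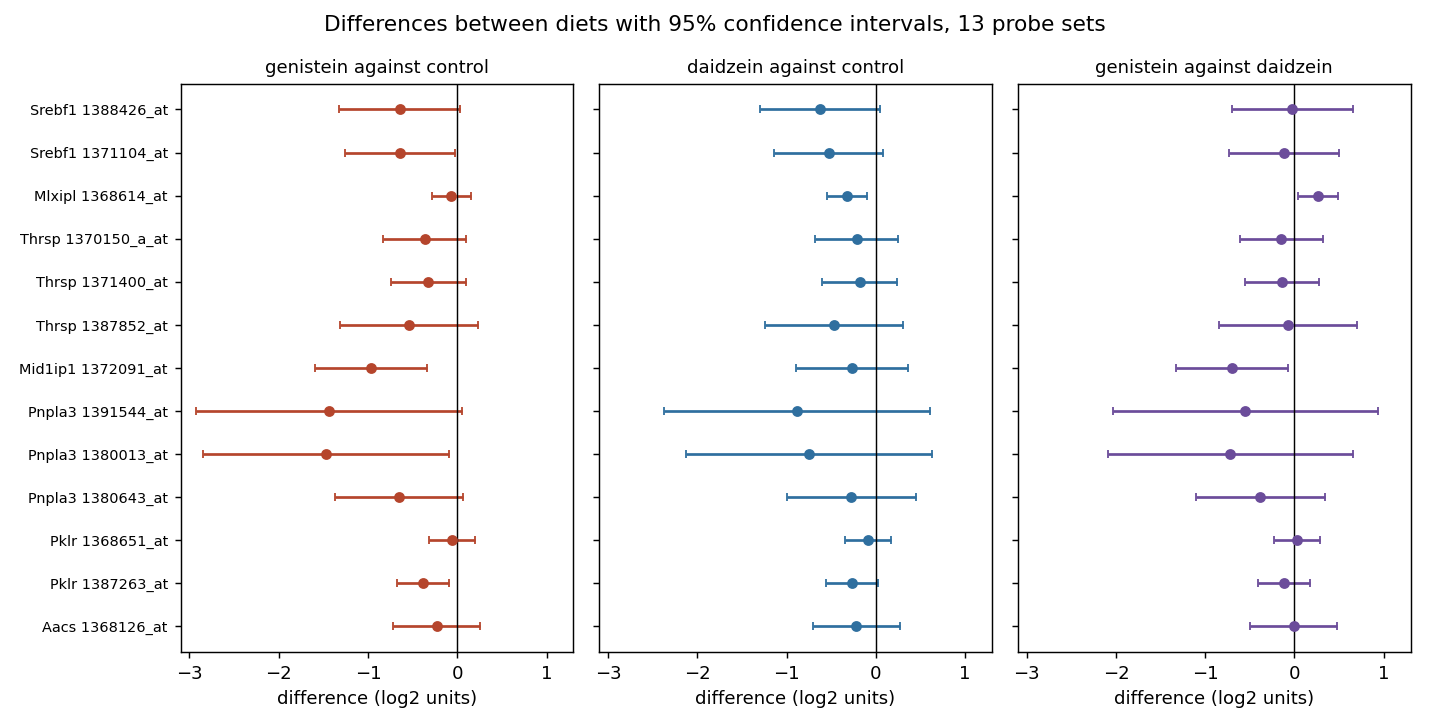
Difference between diets in log2 units (horizontal) for the 13 probe sets of the 7 genes, with 95% confidence intervals from the limma fit, in 3 panels. Points lie left of 0 for all 13 probe sets in both comparisons with control, and the widest intervals are those of the Pnpla3 probe sets 1391544_at and 1380013_at.

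Srebf1 was measured by 2 probe sets whose levels followed each other with r = 0.986 over the 15 arrays, after diet means were removed. On the probe set of the higher mean (1388426_at), the level was 4.96, 4.73, 3.68, 5.26 and 4.30 in genistein arrays 1 to 5. It was 5.28, 5.00, 4.64, 4.29 and 3.83 in daidzein arrays 1 to 5, against 5.73, 5.14, 5.30, 5.41 and 4.58 in control arrays 1 to 5. The groups overlapped: genistein 3 and 5 and daidzein 4 and 5 lay below every control array, and the other isoflavone arrays lay within the control range. Srebf1 averaged 4.59 ± 0.62 beside genistein and 4.61 ± 0.57 beside daidzein, against 5.23 ± 0.42 in controls (SD, n = 5 each). The difference from control was -0.65 ± 0.32 for genistein (SE; limma adjusted p = 0.481) and -0.62 ± 0.32 for daidzein (adjusted p = 0.640). Genistein and daidzein differed by -0.02 in Srebf1, with a 95% interval from -0.70 to 0.65 (adjusted p = 0.993), so the data leave room for a difference of either sign. The second probe set (1371104_at) gave -0.64 for genistein and -0.53 for daidzein against control (adjusted p = 0.434 and 0.656). Without genistein 3 the genistein difference of 1388426_at was -0.42, and without daidzein 5 the daidzein difference was -0.43.

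Mlxipl, whose product ChREBP senses glucose metabolites, had 1 probe set (1368614_at). It read 1.44, 1.49, 1.41, 1.56 and 1.44 in genistein arrays, and 1.44, 1.16, 1.23, 1.17 and 1.03 in daidzein arrays, against 1.74, 1.52, 1.77, 1.38 and 1.25 in control arrays. Daidzein 2 to 5 lay below every genistein array and every control array, and daidzein 1 lay inside the range of both. The genistein arrays spanned a narrower range than the controls and lay within it. Mlxipl averaged 1.47 ± 0.06 beside genistein and 1.21 ± 0.15 beside daidzein, against 1.53 ± 0.23 in controls (SD, n = 5 each). Daidzein differed from control by -0.33 ± 0.10 (SE; interval -0.55 to -0.10), with a limma adjusted p of 0.415. Genistein differed from control by -0.06 (interval -0.29 to 0.16, adjusted p = 0.889). Genistein minus daidzein was 0.26 ± 0.10 in Mlxipl (SE; interval 0.04 to 0.48, adjusted p = 0.432), which did not pass the test. Without daidzein 5, the array with pancreas transcripts, daidzein minus control was -0.28 and genistein minus daidzein 0.22, so both stood close to their values over all arrays.

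Pklr encodes the liver form of pyruvate kinase, which closes glycolysis and feeds carbon towards fat, and its promoter element is shown above. Its probe set of the higher mean (1368651_at) read 6.05, 6.38, 5.70, 6.06 and 5.87 in genistein arrays. It read 5.90, 5.89, 6.06, 5.89 and 6.17 in daidzein arrays, against 6.05, 6.34, 5.93, 6.04 and 5.98 in control arrays. The 3 diets overlapped, and the genistein arrays spread most widely. The differences were -0.06 beside genistein and -0.09 beside daidzein against control, and 0.03 between the isoflavones (adjusted p = 0.919, 0.885 and 0.973). The other probe set of Pklr (1387263_at) gave another picture, with 4.73, 4.97, 4.44, 4.88 and 4.62 beside genistein. It read 4.71, 4.85, 4.97, 4.71 and 4.99 beside daidzein, against 5.05, 5.52, 5.02, 5.24 and 4.74 in controls. All 5 arrays of each isoflavone lay below the control mean of 5.11, though not all of them below the lowest control. The differences were -0.39 ± 0.14 for genistein (SE; limma adjusted p = 0.301) and -0.27 for daidzein (adjusted p = 0.642). The 2 probe sets correlated with r = 0.836, the lowest agreement among the probe sets of 1 gene in this group, and which of them follows the transcript better was not tested.

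**Figure D2:**
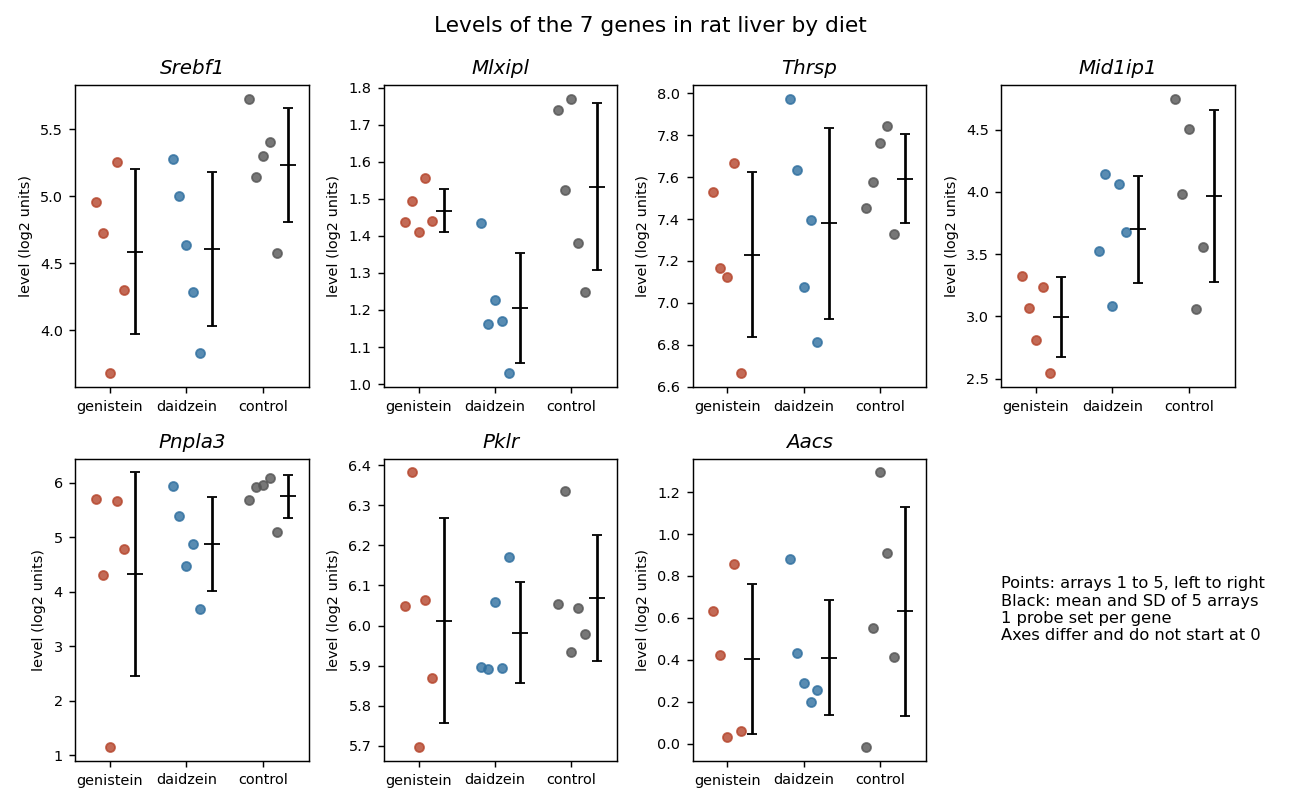
Level in log2 units (vertical, a separate axis for each gene, not starting at 0) by diet for 1 probe set per gene, that of the highest mean level. Points are arrays 1 to 5 from left to right, and the black marks are the mean and SD of 5 arrays; the Mid1ip1 genistein points run from 2.54 to 3.33, and genistein 3 stands at 1.15 for Pnpla3.

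Thrsp encodes Spot 14, a small protein of lipogenic tissues that thyroid hormone and carbohydrate induce in rat liver. On 1370150_a_at it read 7.53, 7.17, 7.13, 7.67 and 6.66 in genistein arrays and 7.97, 7.64, 7.08, 7.39 and 6.81 in daidzein arrays, against 7.45, 7.58, 7.76, 7.84 and 7.33 in control arrays. Controls were tightly grouped, and both isoflavone groups reached below them: genistein 2, 3 and 5 and daidzein 3 and 5 lay under the lowest control, while daidzein 1 was the highest of the 15. Thrsp averaged 7.23 ± 0.39 beside genistein and 7.38 ± 0.46 beside daidzein, against 7.59 ± 0.21 in controls (SD, n = 5 each). The difference was -0.36 for genistein (SE 0.22, adjusted p = 0.594) and -0.21 for daidzein (adjusted p = 0.833) against control. Genistein minus daidzein was -0.15 in Thrsp, with an interval from -0.61 to 0.32 (adjusted p = 0.898). The other 2 probe sets gave -0.32 and -0.54 for genistein and -0.18 and -0.47 for daidzein against control, with r between 0.910 and 0.969 among the 3. With any 1 array left out, the genistein difference of 1370150_a_at from control lay between -0.47 (without genistein 4) and -0.22 (without genistein 5). The daidzein difference lay between -0.36 (without daidzein 1) and -0.07 (without daidzein 5).

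Mid1ip1, the paralogue of Thrsp, encodes a protein that helps acetyl-CoA carboxylase, the enzyme that commits carbon to fatty acids, to form active polymers. Its probe set (1372091_at) read 3.33, 3.07, 2.81, 3.24 and 2.54 in genistein arrays. It read 3.53, 4.14, 3.08, 4.07 and 3.67 in daidzein arrays, against 4.75, 3.98, 4.50, 3.06 and 3.55 in control arrays. All 5 genistein arrays lay below the mean of the daidzein arrays and below that of the control arrays. The groups still overlapped, because control 4 and daidzein 3 lay among the genistein arrays. Mid1ip1 averaged 3.00 ± 0.32 beside genistein and 3.70 ± 0.43 beside daidzein, against 3.97 ± 0.69 in controls (SD, n = 5 each). Genistein differed from control by -0.97 ± 0.29 (SE; interval -1.60 to -0.34), a level 1.96-fold lower, with a limma adjusted p of 0.199. Genistein differed from daidzein by -0.70 ± 0.29 (interval -1.33 to -0.07, adjusted p = 0.468), and daidzein from control by -0.27 (interval -0.90 to 0.36, adjusted p = 0.852). Leaving out any 1 array kept the genistein and control difference between -1.20 (without control 4) and -0.78 (without control 1). Daidzein minus control lay between -0.50 and -0.08 without the same 2 arrays.

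Pnpla3 encodes adiponutrin, a patatin-like lipase homologue of lipid droplets, whose mRNA is known to drop on fasting and to climb on refeeding with carbohydrate. Its 3 probe sets followed each other with r from 0.892 to 0.972. On 1391544_at it read 5.70, 4.31, 1.15, 5.66 and 4.78 in genistein arrays and 5.93, 5.39, 4.47, 4.87 and 3.68 in daidzein arrays, against 5.69, 5.92, 5.97, 6.09 and 5.10 in control arrays. Genistein 3 stood far below the other 14 arrays, and on the other 2 probe sets it was likewise the lowest of the 15, at 1.46 and 1.33. Genistein 1 and 4 and daidzein 1 and 2 lay within the control range, and the remaining isoflavone arrays lay below it. Pnpla3 averaged 4.32 ± 1.87 beside genistein and 4.87 ± 0.86 beside daidzein, against 5.75 ± 0.39 in controls (SD, n = 5 each). The difference from control was -1.44 ± 0.70 for genistein (SE; adjusted p = 0.478) and -0.88 for daidzein (adjusted p = 0.764). Without genistein 3 the genistein difference of 1391544_at was -0.64 (adjusted p = 0.716), and without daidzein 5 the daidzein difference was -0.59. Genistein minus daidzein was -0.55 on 1391544_at over all arrays (interval -2.04 to 0.94) and 0.24 without genistein 3. The sign of that probe set thus rested on genistein 3. The same difference over all arrays was -0.72 on 1380013_at and -0.38 on 1380643_at, and both kept that sign without genistein 3. The probe set 1380013_at gave -1.47 for genistein against control (limma adjusted p = 0.424), and -0.81 without genistein 3. The probe set 1380643_at gave -0.65, and -0.35 without genistein 3.

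Aacs encodes acetoacetyl-CoA synthetase, a cytosolic enzyme that returns acetoacetate to the synthesis of sterols and fatty acids. It read 0.63, 0.42, 0.03, 0.86 and 0.06 in genistein arrays (1368126_at). It read 0.88, 0.43, 0.29, 0.20 and 0.25 in daidzein arrays, against -0.02, 0.55, 1.29, 0.91 and 0.42 in control arrays. The control arrays spanned a wider range than either isoflavone group and held both the lowest and the highest of the 15 levels. Against control, genistein differed by -0.23 and daidzein by -0.22 (adjusted p = 0.786 and 0.839). Genistein minus daidzein was -0.01, with an interval from -0.50 to 0.48 (adjusted p = 0.996). Without control 1, the lowest array, the differences from control were -0.39 for genistein and -0.38 for daidzein, and without control 3, the highest, both were -0.06.

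The 7 genes were averaged, each on its probe set of the highest mean level and measured from its control mean. Arrays of the same diet differed widely. The mean was -0.16, -0.46, -1.27, -0.07 and -0.73 in genistein arrays 1 to 5. It was 0.02, -0.16, -0.56, -0.41 and -0.76 in daidzein arrays, against 0.09, 0.04, 0.25, -0.01 and -0.37 in control arrays. Genistein 2, 3 and 5 and daidzein 3, 4 and 5 lay below every control array, and the other 4 isoflavone arrays lay within the control range. The genes were not equally low in any of these arrays: in daidzein 5, for example, Srebf1 stood at -1.40 and Pklr at 0.10.

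**Figure D3:**
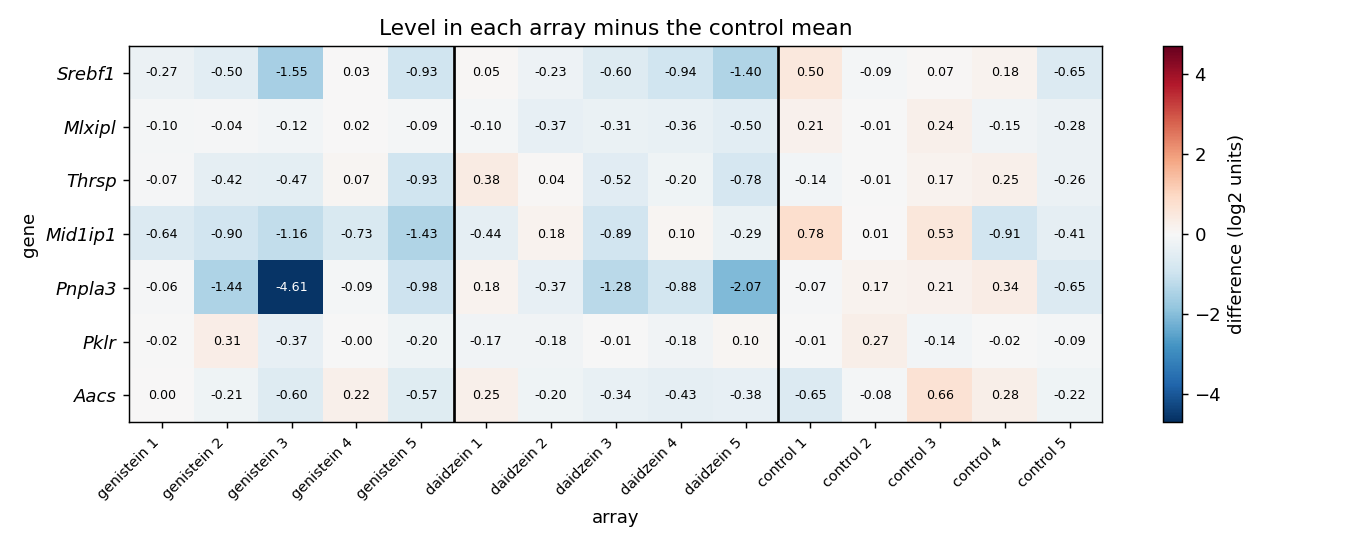
Level of each of the 7 genes (down the page) in each array (across) minus the mean of the 5 control arrays, in log2 units, with blue for lower and red for higher. Pnpla3 in genistein 3, at -4.61, is the darkest cell, Srebf1 is -1.55 in genistein 3 and -1.40 in daidzein 5, and Pklr stays within 0.37 of its control mean.

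The 7 genes were next compared with each other from animal to animal, after each gene was centred on its diet means, over all 15 arrays. For each gene, 1 probe set was used, that of the highest mean level. Of the 21 pairs, 5 had a Pearson r with a Benjamini-Hochberg adjusted permutation p under 0.05, and 4 did by Spearman's rho. Srebf1 and Pnpla3 had the highest r, with r = 0.817 and rho = 0.729 (permutation p = 4.2e-04 and 0.00692, adjusted p = 0.00682 and 0.0474). Without genistein 3 and daidzein 5, the 2 arrays farthest from the median of Srebf1, their r was 0.714. Thrsp and Aacs had the highest rho, with r = 0.720 and rho = 0.761 (permutation p = 6.5e-04 and 0.00105, adjusted p = 0.00682 and 0.0220), and r = 0.619 without daidzein 1 and genistein 5. These 2 pairs passed with any 1 of the 15 arrays left out, Srebf1 and Pnpla3 at r from 0.787 to 0.861 and Thrsp and Aacs at r from 0.658 to 0.783. The Aacs probe set had the lowest mean signal of the 7 used, which speaks of brightness and not of amounts of RNA. The part of background signal in the r of Aacs was not tested.

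Srebf1 also varied with Thrsp, at r = 0.725 and rho = 0.707 (permutation p = 0.00907 and 0.0137, adjusted p = 0.0402 and 0.0577, r = 0.733 without the 2 farthest arrays). Between the 2 regulators, Srebf1 and Mlxipl, r was 0.652 and rho 0.614 (permutation p = 0.00227 and 0.0183, adjusted p = 0.0159 and 0.0642, r = 0.651 without the 2 farthest). Pnpla3 and Aacs had r = 0.548 and rho = 0.654 (permutation p = 0.00958 and 0.00903, adjusted p = 0.0402 and 0.0474, r = 0.615 without the 2 farthest). These 3 pairs were less firm: Srebf1 and Thrsp no longer passed in 8 of 15 runs that left out 1 array, Pnpla3 and Aacs in 10 and Srebf1 and Mlxipl in 3. Thrsp and Pnpla3 passed by rho (0.746, adjusted permutation p = 0.0474) and not by r (0.547, adjusted permutation p = 0.175). Without genistein 3 their r was 0.885. On 1368651_at, the only Pklr probe set used here, Pklr had r between -0.10 and 0.27 against the other members, and none of its 6 pairs passed. Without genistein 3 those r lay between -0.43, with Pnpla3, and -0.03, with Mid1ip1. Mid1ip1 had r between 0.01 and 0.52, the highest with Mlxipl (adjusted permutation p = 0.317).

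**Figure D4:**
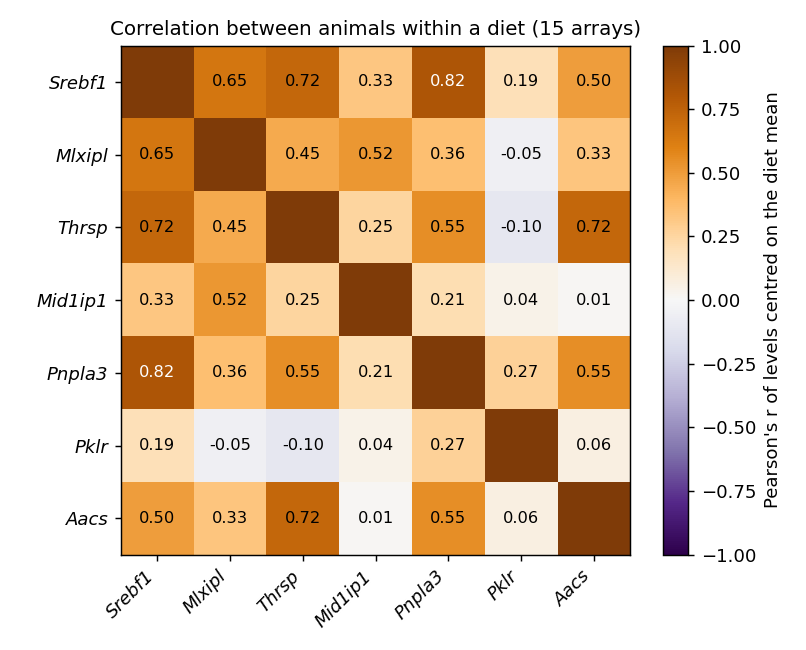
Pearson's r between the 7 genes, 1 probe set per gene, over 15 arrays, after levels were centred on the mean of their diet, coloured from purple (negative) to brown (positive). Srebf1 and Pnpla3 reach 0.82, and Pklr lies between -0.10 and 0.27 with the others.

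The genes most like each member over the same 15 centred arrays were taken from 10647 genes, and their r is a description with no test. For Srebf1 they were Plxna2 (0.938), Rab7a (0.924), the nuclear receptor gene Rora (0.923), Ttyh2 (0.920) and Ptprv (0.916). Among lipogenic enzymes, fatty acid synthase, Fasn, ranked 18 with Srebf1 at 0.852. Acly had 0.832, Elovl6 0.806 and Acaca 0.631, while Me1 had 0.22 and Scd, a stearoyl-CoA desaturase gene, -0.41. For Pnpla3 the closest were Acly, the ATP citrate lyase that makes cytosolic acetyl-CoA (0.975), and the clock transcription factor gene Bmal1 (0.974). Scly (0.947), Tmem97 (0.939) and Tubb2a (0.924) came next, and Fasn was at rank 6 (0.913). Elovl6 had 0.80 with Pnpla3, Acaca 0.44, Me1 0.25 and Scd -0.46. Without genistein 3, the r with Pnpla3 was 0.913 for Acly, 0.939 for Bmal1, 0.893 for Scly, 0.792 for Tmem97 and 0.924 for Tubb2a.

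For Thrsp the most alike were Msmo1, a methylsterol oxidase of cholesterol synthesis (0.909), Tpst2 (0.887) and Jagn1 (0.872). Mvd, mevalonate diphosphate decarboxylase (0.860), and Otub2 (0.852) came next. Among the lipogenic enzymes, Elovl6 had 0.63 with Thrsp, Fasn 0.59, Acly 0.57, Acaca 0.46, Me1 0.12 and Scd -0.58. Aacs shared Msmo1 (0.844) with Thrsp, beside Uggt1 (0.889), Ntaq1 (0.843) and the sterol enzymes Dhcr7 (0.843) and Sqle (0.839). For Pklr they were Me1, malic enzyme (0.896), and Pgd of the pentose phosphate pathway (0.861), both of which make NADPH. Rnf11l2 (0.835), Ptprs (0.807) and Anxa4 (0.781) came next. Scd was at rank 74 with Pklr (0.65), and Acaca had 0.57, Fasn 0.48, Elovl6 0.36 and Acly 0.35. For Mlxipl they were Plaa (0.871), Zmat2 (0.856), Snorc (0.842), Get4 (0.831) and Csnk1g3 (0.831). For Mid1ip1 they were Rlim, a ubiquitin ligase gene (0.946), Ppfia1 (0.851), Scn10a (0.851), Rnf207 (0.833) and Phf3 (0.827).

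The genes around the regulators were read in lists by role, with 1 probe set per gene. Like the members, the lists were chosen with earlier results of these data known. In each of the 3 comparisons, 0 genes of any list were called. Over all genes, the median difference from control was -0.00381 beside genistein and -0.00366 beside daidzein, and 0.00138 when the isoflavones were set against each other. Of 10 measured genes that process or control SREBP, Fbxw7 lay below the filter. Among the 9 tested, 5 were lower and 4 higher beside genistein (median -0.07), 2 of the lower ones at an unadjusted p under 0.05, where 5.5% of all probe sets were lower at that level. With any 1 array left out, that median lay between -0.17 (without genistein 2) and -0.04 (without control 2). Insig1, which holds the SREBP precursor in the endoplasmic reticulum and is itself an SREBP target, averaged 4.89 ± 1.18 beside genistein and 5.20 ± 1.06 beside daidzein, against 6.22 ± 0.60 in controls (SD, n = 5 each). Its difference was -1.33 for genistein (limma adjusted p = 0.406) and -1.02 for daidzein (adjusted p = 0.664). Those values were -1.16 for genistein without genistein 3 and -0.79 for daidzein without daidzein 5. Nr1h3, the gene of LXR alpha, differed by -0.25 beside genistein (adjusted p = 0.337) and -0.16 beside daidzein (adjusted p = 0.691). The paralogue Srebf2 differed by -0.18 and -0.11, Insig2 by -0.23 and 0.09 and Rxra, the partner of LXR, by 0.12 and 0.29 for genistein and daidzein against control. For daidzein the list had 4 lower and 5 higher (median 0.06), and between the isoflavones 7 lower and 2 higher (median -0.09).

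Among 9 measured genes of ChREBP partners and carbohydrate response, 5 were lower and 4 higher in both comparisons with control, with medians of -0.02 for genistein and -0.01 for daidzein. Gckr, a regulatory protein of hepatic sugar metabolism, ran with Mlxipl in that daidzein was the low group. It averaged 5.28 ± 0.11 beside genistein and 4.98 ± 0.10 beside daidzein, against 5.26 ± 0.06 in controls (SD, n = 5 each). Daidzein minus control was -0.28 (limma adjusted p = 0.346) and genistein minus daidzein 0.30 (adjusted p = 0.123), and neither passed. Arrdc4, a ChREBP target, averaged 0.84 ± 0.54 beside genistein and 0.01 ± 0.63 beside daidzein, against 0.33 ± 0.22 in controls (SD, n = 5 each). Genistein minus daidzein was 0.83 in Arrdc4 (limma adjusted p = 0.335), and 0.58 without daidzein 5. Daidzein minus control was -0.32, and -0.07 without daidzein 5. Txnip, another such target, differed by -0.06 for genistein and -0.15 for daidzein against control, Fgf21 by 0.48 and 0.04, Mlx by 0.15 and -0.01, and Mlxip, a paralogue of Mlxipl, by -0.14 and 0.15. Between the isoflavones the list had 3 lower and 6 higher (median 0.09), with Mlxip at -0.29.

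Of 14 measured enzymes of fatty acid synthesis, 9 were lower and 5 higher in both comparisons with control, with medians of -0.07 for genistein and -0.06 for daidzein, and 5 lower and 9 higher between the isoflavones (median 0.03). Beside genistein 4 of the 14 were lower at an unadjusted p under 0.05 and 0 higher, against 5.5% and 5.45% of all probe sets. The genistein median was -0.18 without genistein 2, 0.01 without genistein 3 and 0.02 without control 2, so its sign rested on single arrays. Fasn averaged 5.46 ± 1.04 beside genistein and 6.02 ± 0.32 beside daidzein, against 6.36 ± 0.45 in controls (SD, n = 5 each), a difference of -0.89 for genistein (adjusted p = 0.425) and -0.33 for daidzein (adjusted p = 0.865). Acly differed by -0.85 for genistein and -0.44 for daidzein (adjusted p = 0.354 and 0.750). Without genistein 3 the genistein differences were -0.47 for Fasn and -0.48 for Acly. Without daidzein 5 the daidzein differences were -0.22 for Fasn and -0.30 for Acly. The elongase Elovl5 differed by -0.22 and -0.24 (adjusted p = 0.337 and 0.446). The differences of Acaca were -0.11 and -0.17, those of Scd 0.07 and -0.05, those of Elovl6 -0.14 and -0.58 and those of Me1 -0.16 and 0.26, in each case genistein and then daidzein against control. Leaving out genistein 3 turned the genistein difference of Elovl6 to 0.11. Me1 and the citrate carrier gene Slc25a1 had the lowest p between the isoflavones, at -0.41 and -0.15 (adjusted p = 0.507 and 0.680).

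All 9 measured genes of cholesterol synthesis were lower beside genistein than beside control (median -0.34), 5 of them at an unadjusted p under 0.05, where 5.5% of all probe sets were lower at that level, and 8 of 9 were lower beside daidzein (median -0.13), 0 of them at that level. With any 1 array left out, the genistein median lay between -0.42 and -0.25, and the daidzein median between -0.19 (without control 5) and -0.05 (without daidzein 5). Msmo1 had the lowest p, with 4.07 ± 0.30 beside genistein and 4.62 ± 0.33 beside daidzein, against 4.88 ± 0.33 in controls (SD, n = 5 each). Its genistein difference was -0.81 (limma adjusted p = 0.0905), that of Sqle was -0.55 (adjusted p = 0.274), and for daidzein the lowest p was that of Nsdhl, at -0.16 (adjusted p = 0.666). Between the isoflavones 8 of 9 were lower beside genistein (median -0.29), with Msmo1 at -0.55 and Sqle at -0.44. Without genistein 4, Msmo1 passed the test for genistein against control, at -0.90 (adjusted p = 0.0456).

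The list named ketone body enzymes had 3 genes measured, whose place in it was set by name and not by their role in liver. Acat2 differed by -0.42, Acat1 by 0.13 and Bdh1 by 0.06 beside genistein, and by 0.09, 0.13 and 0.01 beside daidzein, against control. The genistein difference of Acat2 was -0.21 without genistein 3. Acat2 was at -0.51 between the isoflavones (adjusted p = 0.598). Of 5 measured thyroid hormone response genes, which bear on Thrsp, Hr lay below the filter, and among the 4 tested, Dio1, the deiodinase gene, differed by -0.66 beside genistein (adjusted p = 0.438) and -0.13 beside daidzein. Klf9 differed by 0.65 and 0.20, and the receptor genes Thra by -0.18 and -0.15 and Thrb by 0.16 and 0.05, for genistein and daidzein against control. Pnpla2, the paralogue of Pnpla3 that encodes the main triglyceride lipase of adipose tissue, differed by 0.15 and 0.26 (adjusted p = 0.634 and 0.503).

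**Figure D5:**
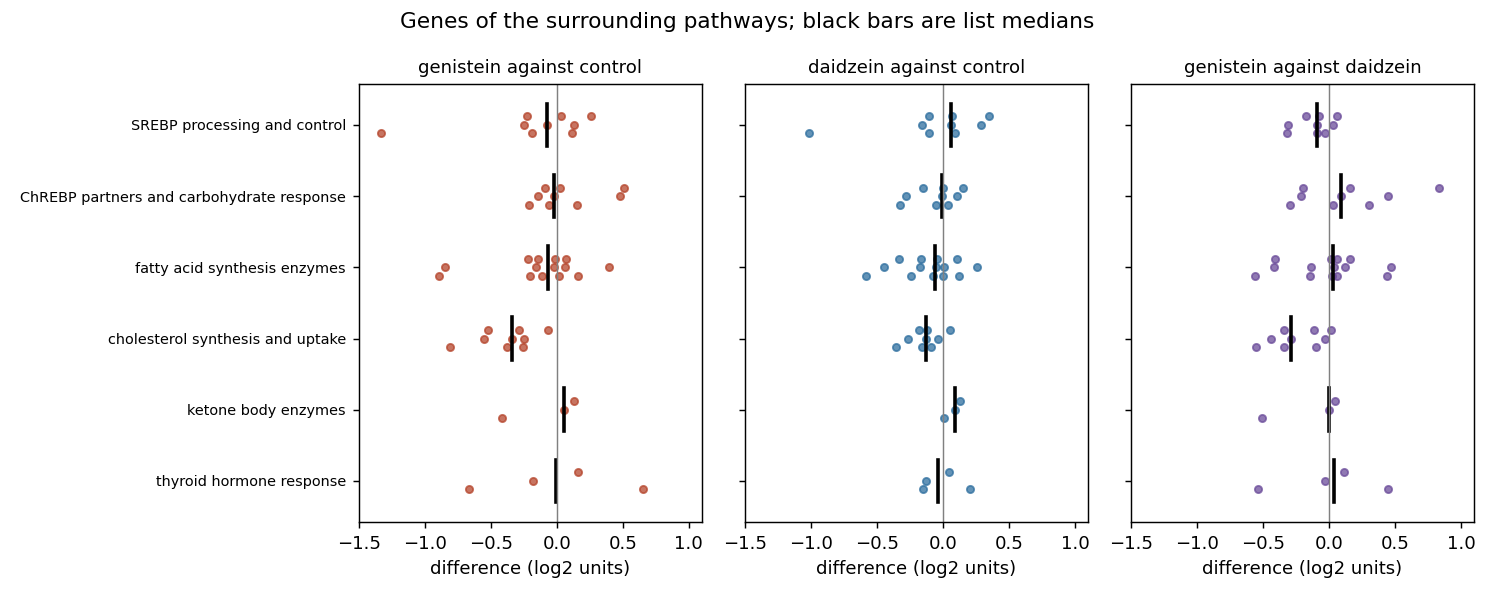
Difference between diets in log2 units (horizontal) for the genes of 6 lists (down the page), 1 point per gene, with a black bar at the list's median, in 3 panels. The cholesterol list sits left of 0 in all 9 genes for genistein against control, with a median of -0.34, and the Insig1 point lies at -1.33.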

How the data were processed

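Liver RNA was measured on 15 1-channel Affymetrix rat arrays, labelled in 1 cycle per the labels' protocols. The values the authors deposited state no unit and are taken here as a score, a standardised log signal for each array. That reading is an inference from the values: once exponentiated on a scale fitted to each array, all 359 gaps tested between recurring values came out as whole steps, to within 0.001. The summary method is, in the sources used here, not given. Scores were multiplied by 2.60 log2 units per score unit, the mean of scales that ran from 2.54 to 2.79, and quantile normalized with limma 3.58.1 in R 4.3.3. The 57 control probe sets and those under the 40th percentile of mean level were left out, which left 18625. A fit of the 3 diets with lmFit and eBayes over 15 arrays (12 residual and 2.58 prior degrees of freedom) gave differences, SE, 95% intervals and p, adjusted by Benjamini-Hochberg over the 18625, with a threshold of 0.05. Values were missing in 260 cells, 0 of them in tested probe sets. The steps were tested on simulated data.

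Genes came from the array annotation, with 1 symbol for 20826 probe sets, several for 436 and none for 9780; 20758 matched the current rat table. A gene was represented by its probe set of the highest mean level (10745 genes). Correlations used levels centred on diet means, Spearman and Pearson, with 100000 permutations within diets and adjustment over 21 pairs. The members, lists and markers were chosen with earlier results of these data known. The text names the 7 genes, a fixed set of lipogenic genes, the 2 genes of lowest p in each list and comparison, and the 5 genes most like each member; some genes of that set are not analysed here. Title numbers might pair arrays, but among 15 such pairs r ran from -0.163 to 0.109 and exceeded 0.1 in 1, so no block was used. For several arrays the description carries another replicate number than the title, and pairing by description numbers was not checked. Alternatives covered scaling, added signal, filters, weights, a block and arrays left out. Precision is limited by the 5 arrays per diet.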

Additional observations from a re-analysis of the deposited data

Results flagged for a closer look

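The mean of the 4 exocrine pancreas markers was 6.63 in daidzein 5, and its gap to the next daidzein array was 0.941 of the range of the 5. Arrays were picked out where that share was above 0.710, a limit that chance passes in about 1 in 20 groups. Prss1, trypsin, stood at 7.59 there and Cpa1 at 5.91. Without daidzein 5, daidzein minus control was -0.43 for Srebf1 (1388426_at), -0.28 for Mlxipl, -0.07 for Thrsp (1370150_a_at), -0.26 for Mid1ip1 and -0.59 for Pnpla3 (1391544_at). Pklr went the other way. Daidzein 5 was its highest daidzein array on both probe sets, so its difference from control widened without that array. Aacs read 0.25 in daidzein 5, below its daidzein mean of 0.41, so its difference narrowed. The part of pancreas RNA in these values was not tested beyond that. In the 39 groups of 5 arrays formed by the 13 probe sets, 0 arrays lay beyond the same limit of 0.710, although Pnpla3 in genistein 3 came close to it at 0.695.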

How the results depend on the processing

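Under 24 other settings, 0 of 936 values of the 13 probe sets were called (lowest adjusted p 0.110), so the count of members called stayed at 0 in all 3 comparisons; 25 values changed sign, each of them within 1 SE of 0. Of 3525 values of list genes, 1 was called, that of Msmo1. Counts over all probe sets moved: for genistein against control 60 became 14 with no filter, 124 with a stricter filter, 0 with only the 10 arrays compared, 140 with array weights, 17 with a replicate block, 1 without both control 1 and genistein 3, and 5 (without control 3) to 203 (without genistein 4) with 1 array left out. For daidzein against control 3 became 7 with the stricter filter and 7 with weights, and 2 to 8 (without daidzein 1) with 1 array left out. For genistein against daidzein 21 became 35 with 16 added to the signal, 3 with no filter, 67 with the stricter filter, 2 with only 10 arrays, 74 with weights, 2 with the block, 3 without both arrays, and 3 (without daidzein 3) to 136 (without genistein 4). With 1 array left out, correlated pairs numbered 2 to 8, the SREBP list median for genistein ran from -0.17 to -0.038 and the ChREBP list median for daidzein from -0.075 to 0.028. The causes were not tested. Background correction of dim probe sets cannot be checked from the deposited values.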
